A study of Mus musculus with 28 samples.

Results

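The genes described here are *Cilp*, *Cilp2*, *C1qtnf3*, *Fibin*, *Acan*, *Sox9*, *Scx*, *Tnmd*, *Chad*, and *Runx2*, 10 of the 56980 genes counted in bulk RNA of the mouse carotid–jugular arteriovenous fistula (AVF). They are best known from tendon, cartilage, and bone, and they were selected by symbol from genes that had stood out in late AVFs of these data. The values of the late libraries against the contralateral veins, the early AVFs, and the mid AVFs chose them. Counts of called genes in these comparisons repeat that choice, so they are given as a description with no *p* for a gene and support nothing. Early and mid AVFs against contralateral veins and mid against early AVFs carry tests, though each shares libraries with the values that chose the genes. Of the 10 genes, 7 reached the mean normalized count of 100 over all libraries that a gene needed to be tested, as did 12673 genes in all. *Acan* met the minimum through its mid and late libraries: its mean normalized count was 39.6 over contralateral veins and early AVFs, 150 over contralateral veins and mid AVFs, and 264 over all libraries. *Sox9*, *Tnmd*, and *Runx2*, with 523, 62, and 545 reads over all contralateral veins, also met it through AVFs. *Scx* lay just under this minimum at 98.7, and *Chad* at 30.7 and *Cilp2* at 27.8 were further below. *Runx2*, at 239, had the lowest count of the 7 tested members.

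The study used male and female C57BL/6 mice, and the sources used here do not give their age. Every mouse, including those that gave the contralateral veins, had a subtotal nephrectomy and weeks later an AVF that joined a jugular vein to a carotid artery. One bulk library was made per vessel, from 7 contralateral jugular veins and from the outflow veins of 8 early, 5 mid, and 5 late AVFs, with nominal days of 3, 10, and 21 after surgery. The study gives a wider spread of harvest days for early than for mid or late bulk AVFs. Single-cell RNA sequencing gave 1 library for each of 3 conditions (contralateral, early, and late), every one a pool of vessels from several mice, and none of mid AVFs. Per the study, early and late single-cell AVFs were harvested later on average than the bulk AVFs of the same name. Bulk and single-cell values under the same name are therefore not from the same days. The labels do not say at which time a contralateral vein was taken or to which AVF it belongs.

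Bulk libraries held 20254173 to 67457501 counted reads, with a median of 27994164. Levels are given in counts-per-million (CPM) of a library total scaled by the trimmed mean of M values (TMM). Contralateral veins showed fewer genes, 11958 to 18283 with at least 1 count, than late AVFs, with 24529 to 26771, and 363 to 2848 of the tested genes were at 0 in a contralateral vein against 10 to 30 in a late AVF. In 8 of the 25 libraries (2 early, 2 mid, and 4 late) the transcripts of *Xist* and of Y-linked genes were opposite to the labelled sex. Skeletal muscle genes, 10 of which were summed, exceeded 1000 CPM in 7 libraries (2 early, 3 mid, and 2 late). The single-cell libraries kept 6319, 4753, and 5821 cells (contralateral, early, and late), with medians of 2751, 8951, and 15425 unique molecular identifiers (UMIs) per cell, and 62 of the kept cells carried a barcode found in another library. Results that rest on the libraries named here are given with and without them.

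Tendon and cartilage are built by fibroblast-related cells under the direction of a few transcription factors: scleraxis (*Scx*) in tendon progenitors, SOX9 in chondrocytes, and RUNX2 in osteoblasts and maturing chondrocytes. The matrix they secrete bears the load. Aggrecan (*Acan*) is the large proteoglycan that holds water in cartilage, chondroadherin (*Chad*) is a leucine-rich repeat protein that links cells and collagen, and cartilage intermediate layer protein (*Cilp*) and its relative *Cilp2* are matrix glycoproteins. Tenomodulin (*Tnmd*) is a membrane glycoprotein of mature tendon. C1q/TNF-related protein 3 (*C1qtnf3*) is secreted by growing cartilage and by fat, and *Fibin* encodes a secreted protein first described in limb bud development. In blood vessels, some of these genes are known from mesenchymal cells of the wall under mechanical load and from calcifying plaques.

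On the mouse assembly GRCm38 with GENCODE M21, all 10 genes are protein coding. *Cilp* lies at chr9:65265180-65280605, *C1qtnf3* at chr15:10952332-10980150, *Acan* at chr7:79053483-79115099, and *Tnmd* at chrX:133850980-133865577, all on the plus strand. *Sox9* lies at chr11:112782224-112787760, *Scx* at chr15:76457452-76459458, and *Chad* at chr11:94565047-94569127 on the plus strand, and *Cilp2* at chr8:69880369-69887687, *Fibin* at chr2:110360917-110363183, and *Runx2* at chr17:44495987-44814797 on the minus strand. The region upstream of the transcription start (RefSeq, GRCm38.p6) is shown for the 4 tested members with a RefSeq entry whose late libraries all lay above all contralateral veins. Each is written from 5′ to 3′ on the strand of the gene and ends just before the start, and the *Tnmd* sequence stops where the GENCODE M21 gene begins. Capitals mark matches, on either strand, to the letters TGTGGT (RUNX), GGAATG (TEAD), ACAANG (SOX), and TGANTCA (AP-1), and E boxes are not marked.
Cilp, chr9:65264930-65265179, plus strand: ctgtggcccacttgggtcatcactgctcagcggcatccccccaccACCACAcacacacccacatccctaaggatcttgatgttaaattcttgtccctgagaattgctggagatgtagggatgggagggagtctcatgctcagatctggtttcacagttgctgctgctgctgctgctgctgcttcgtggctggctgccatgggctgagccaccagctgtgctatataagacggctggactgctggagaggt
C1qtnf3, chr15:10952082-10952331, plus strand: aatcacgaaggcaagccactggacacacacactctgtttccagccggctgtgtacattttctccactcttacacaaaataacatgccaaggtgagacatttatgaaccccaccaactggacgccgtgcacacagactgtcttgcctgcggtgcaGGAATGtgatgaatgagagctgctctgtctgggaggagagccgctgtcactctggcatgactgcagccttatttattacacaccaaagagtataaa
Acan, chr7:79052976-79053225, plus strand: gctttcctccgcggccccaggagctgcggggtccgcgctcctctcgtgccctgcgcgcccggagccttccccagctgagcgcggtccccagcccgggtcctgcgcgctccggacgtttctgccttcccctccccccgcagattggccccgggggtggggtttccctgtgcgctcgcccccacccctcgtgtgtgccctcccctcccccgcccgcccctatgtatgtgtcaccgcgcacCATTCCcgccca
Tnmd, chrX:133850758-133850979, plus strand: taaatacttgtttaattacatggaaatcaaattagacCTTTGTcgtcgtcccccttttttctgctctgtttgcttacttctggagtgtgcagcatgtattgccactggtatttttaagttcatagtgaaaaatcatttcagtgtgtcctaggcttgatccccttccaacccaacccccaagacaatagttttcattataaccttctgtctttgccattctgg

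RefSeq entries were found for 8 of the 10 members, and *Sox9* and *Scx* had none in the table used. The search covered 300 bases, 250 before and 50 after each start. A RUNX match was present in *C1qtnf3*, *Cilp*, and *Runx2*, 3 of 8 members, and in 16.8% of 32851 mouse promoters of the same length. In *Cilp* it lay at bases -205 to -200 from the start. A TEAD match was present in *Acan*, *C1qtnf3*, and *Fibin*, 3 of 8 members, and in 14.7% of all promoters, with the *Acan* match at -12 to -7. The SOX letters matched in *Tnmd* alone, 1 of 8 against 41.2% of all promoters, and the AP-1 letters in none of the 8 against 7.81%. An E box (CANNTG), the site of basic helix-loop-helix factors such as scleraxis, matched in 6 of 8 members and in 72.3% of all promoters. The 250 upstream bases were 74.4% G or C in *Acan* and 38.4% in *Tnmd*, and the median of all promoters was 52.4%. These matches are a description of the letters and were not tied to the levels below.

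In the bulk libraries the 10 genes did not share 1 time course. The mean was highest in late AVFs for *Cilp2*, *Acan*, *Tnmd*, and *Chad*, in mid AVFs for *Cilp*, *C1qtnf3*, and *Fibin*, and in early AVFs for the 3 transcription factors *Sox9*, *Scx*, and *Runx2*. The label of late genes therefore described 4 of the 10 by this order. In contralateral veins, *Acan* and *Cilp2* had no read in any of the 7 libraries. The plot of the members by library shows these orders.

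**Figure D1:**
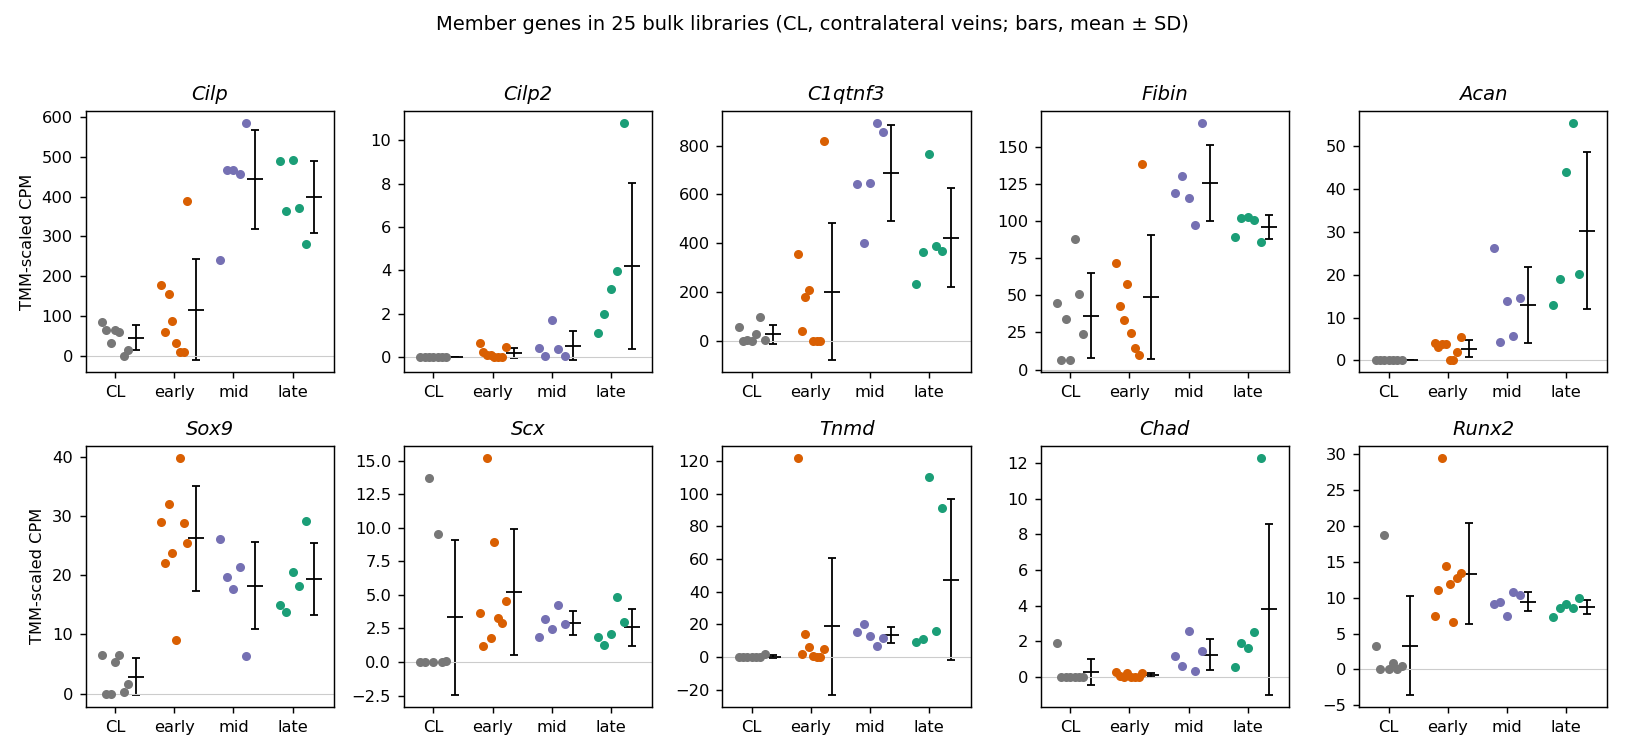
TMM-scaled CPM (vertical axes, 1 scale per gene) of the 10 members in 7 contralateral (CL), 8 early, 5 mid, and 5 late bulk libraries; points are libraries, and bars give the mean ± SD. *Acan* is at 0 in every contralateral vein and between 13.0 and 55.4 CPM in late AVFs, while *Sox9* and *Runx2* have their highest mean in early AVFs.

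Aggrecan showed the steepest course. The 7 contralateral veins were at 0 CPM. Early AVFs lay between 0 and 5.36 CPM, with a median of 3.39, and mid AVFs at 26.2, 4.18, 13.9, 5.79, and 14.5 CPM. Late AVFs reached 13.0, 18.9, 44.0, 55.4, and 20.2 CPM. Every late AVF was thus above every early AVF, whereas late and mid AVFs overlapped. Against a floor of 3 counts over all contralateral veins, means were at least 155-fold higher in early AVFs, at least 729-fold in mid AVFs, and at least 1710-fold in late AVFs. Of the tested genes, 32 (0.253%) were at 0 in all 7 contralateral veins. In bulk tissue, a higher share of cells that use the gene and more RNA per cell cannot be told apart.

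*Cilp* was already present in the resting vein and formed a plateau from mid AVFs on. Contralateral veins ranged from 0 to 84.8 CPM (median 58.2), and early AVFs from 9.44 to 388 CPM (median 73.6). Mid AVFs lay at 242, 468, 468, 457, and 585 CPM and late AVFs at 490, 363, 491, 371, and 281 CPM. All late and all mid AVFs exceeded all contralateral veins, and the early group overlapped with every other group, with early AVF 10 at 388 CPM and early AVFs 6 and 7 below 10 CPM. The mean was 399 ± 90.2 CPM in late AVFs (SD, n = 5) and 45.3 ± 30.8 CPM in contralateral veins (SD, n = 7), with a fitted log2 fold change of 3.14 ± 0.85 (SE).

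Its relative *Cilp2* was far lower and later. It was at 0 in all contralateral veins, at most 0.634 CPM in early AVFs, and at 0.418, 0.0606, 1.69, 0.376, and 0.0557 CPM in mid AVFs. Late AVFs lay at 1.11, 1.97, 3.16, 3.97, and 10.8 CPM. All late AVFs were above all early AVFs and all contralateral veins, and the lowest late AVF was below mid AVF 13. The late mean of 4.201 CPM was at least 237-fold above the floor of the contralateral veins. *Cilp2* did not reach the minimum for a test.

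In absolute CPM, *C1qtnf3* had the widest spread among fistulas of 1 group. Contralateral veins ranged from 0.272 to 100 CPM (median 5.76), and early AVFs from 0.725 to 817 CPM (median 113). Mid AVFs were at 643, 402, 646, 892, and 857 CPM, and late AVFs at 233, 365, 766, 388, and 369 CPM. No mid or late AVF fell within the range of the contralateral veins, and 3 early AVFs (5, 6, and 7) stayed below 2 CPM. The log2 fold change of late AVFs over contralateral veins was 3.90 ± 1.27 (SE).

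*Fibin* followed *C1qtnf3* with a smaller range. Contralateral veins lay between 6.12 and 87.7 CPM (median 34.3) and early AVFs between 9.78 and 139 CPM (median 38.1). Mid AVFs held 119, 130, 116, 97.2, and 166 CPM, and late AVFs 89.1, 102, 103, 101, and 85.7 CPM. Late AVFs were the tightest group of this gene, at 95.95 ± 7.96 CPM (SD, n = 5), and 1 contralateral vein (35) at 87.7 CPM fell within their range. The late log2 fold change over contralateral veins was 1.40 ± 0.55 (SE).

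Tenomodulin was carried by a few fistulas. It was at 0 in 5 contralateral veins, at 0.0791 CPM in vein 27, and at 2.07 CPM in vein 633. Early AVFs ranged from 0 to 122 CPM (median 3.47), and mid AVFs held 15.5, 20.2, 12.7, 6.77, and 11.7 CPM. Late AVFs held 8.99, 10.95, 110, 16.0, and 91.0 CPM. Thus 2 late AVFs (19 and 24) and early AVF 1 exceeded 90 CPM and all other libraries stayed at or below 20.2 CPM. The late log2 fold change over contralateral veins was 7.22 ± 1.73 (SE), 11.35 without contralateral vein 633 and 6.58 without late AVF 19. Skeletal muscle, whose fibers are joined to tendon, moved in part of the same libraries. Its 10 genes summed to 4082 CPM in early AVF 1 and 1449 CPM in late AVF 19, but to 41.5 CPM in late AVF 24, and the library with the largest muscle sum, late AVF 23 at 9890 CPM, held 16.0 CPM of *Tnmd*.

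**Figure D2:**
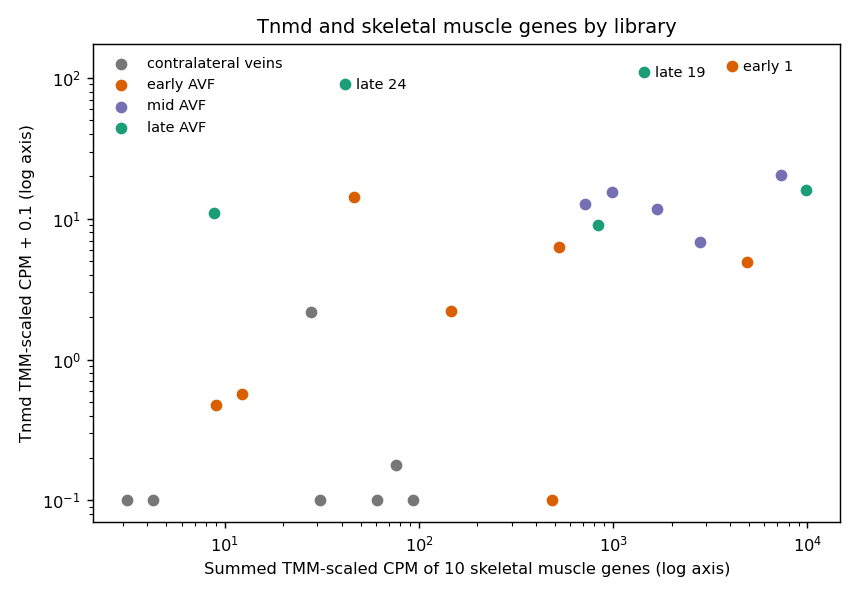
*Tnmd* TMM-scaled CPM plus 0.1 (vertical log axis) against the summed TMM-scaled CPM of 10 skeletal muscle genes (horizontal log axis) in the 25 bulk libraries, colored by group. Of the 3 libraries over 90 CPM of *Tnmd*, early AVF 1 and late AVF 19 have muscle sums of 4082 and 1449 CPM and late AVF 24 one of 41.5 CPM.

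Chondroadherin was rare in every group. Contralateral vein 27 held 1.90 CPM and the other 6 were at 0, early AVFs held at most 0.285 CPM, and mid AVFs held 1.18, 0.606, 2.57, 0.345, and 1.48 CPM. Late AVFs held 0.579, 1.90, 1.63, 2.54, and 12.3 CPM. Every mid and every late AVF was above every early AVF, and the late mean of 3.79 ± 4.80 CPM (SD, n = 5) rested largely on late AVF 24.

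The chondrocyte factor *Sox9* had its highest mean in early AVFs. Contralateral veins ranged from 0 to 6.59 CPM (median 1.59). Early AVFs ranged from 9.13 to 39.8 CPM (median 27.1), mid AVFs held 26.1, 19.7, 17.7, 21.3, and 6.43 CPM, and late AVFs held 15.0, 13.9, 20.5, 18.2, and 29.1 CPM. All early and all late AVFs were above all contralateral veins, and the 3 AVF groups overlapped. The late log2 fold change was 2.74 ± 0.89 (SE) over contralateral veins and -0.44 ± 0.86 over early AVFs.

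The tendon factor *Scx* had no late excess. It was at 0 in 4 contralateral veins and at 13.7 and 9.50 CPM in veins 31 and 35, and early AVFs ranged from 1.17 to 15.2 CPM (median 3.47). Late AVFs held 1.89, 1.27, 2.06, 4.82, and 2.98 CPM, a mean of 2.60 ± 1.38 (SD, n = 5) against 3.33 ± 5.78 in contralateral veins (SD, n = 7). The late libraries lay within the range of the contralateral veins, and with a less strict minimum on counts the fitted log2 fold change was -0.36. *Scx* lies within *Bop1*, a gene of the opposite strand, with no shared exon base.

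The bone factor *Runx2* was steady among fistulas. Contralateral veins ranged from 0 to 18.7 CPM (median 0.414), and early AVFs from 6.65 to 29.5 CPM (median 12.3). Mid AVFs held 9.13, 9.46, 7.39, 10.7, and 10.4 CPM, and late AVFs 7.28, 8.51, 9.15, 8.51, and 9.90 CPM. All AVFs exceeded 6 of the 7 contralateral veins, and vein 31 at 18.7 CPM exceeded every mid and late AVF. The late log2 fold change was 1.39 ± 1.09 (SE), and 3.62 without vein 31. An antisense gene, *Runx2os1*, shares 519 bases (5.87%) of the exons of *Runx2*, and the sources used here do not say whether strand was used in counting.

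Per kilobase of exon, *C1qtnf3* led in late AVFs with 165.9 CPM per kb, before *Cilp* at 93.9, *Fibin* at 42.3, and *Tnmd* at 35.1 CPM per kb. *Sox9* at 4.68 and *Acan* at 4.05 CPM per kb were close to each other. *Chad* at 2.26, *Scx* at 1.30, *Runx2* at 0.981, and *Cilp2* at 0.974 CPM per kb were lowest. In contralateral veins *Fibin* came first at 16.0 CPM per kb, then *C1qtnf3* at 11.1 and *Cilp* at 10.7 CPM per kb, and the veins overlapped among these 3 genes.

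A gene was called when its adjusted *p* (Benjamini–Hochberg over 12673 genes, edgeR's quasi-likelihood F test) was under 0.01 and its absolute log2 fold change at least 1. Late AVFs against contralateral veins is the comparison that chose the genes, and nothing is read from its counts. Called higher were 2 of 7 members (*Acan* and *Tnmd*) and 2.49% of all tested genes. All libraries of late AVFs were above all contralateral veins in 5 of 7 tested members (*Cilp*, *C1qtnf3*, *Acan*, *Sox9*, and *Tnmd*), against 6.25% of all genes, and likewise in *Cilp2*. The median log2 fold change of the 7 members was 3.14, also with *Acan* at its lower bound, and that of all tested genes was -0.09. *Tnmd* lost its call without any 1 of 8 libraries (contralateral veins 27, 28, 31, 34, 35, and 632 and late AVFs 19 and 24), and *Cilp* was called without contralateral vein 632 or early AVF 6. Without the 8 libraries opposite to their labelled sex, which leaves late AVF 16 alone in its group with a spread assumed from the others, no member was called where 0.12% of genes were called higher. Without the 7 libraries rich in muscle genes *Acan* alone was called (0.559% of genes higher). Without the 4 contralateral veins of fewest detected genes *Acan*, *Sox9*, and *Runx2* were called (5.05% of genes higher), and *Tnmd* was not.

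The values of late against early AVFs also entered the choice, and nothing is read from their counts. The edgeR fit called 0 of 7 members and 0.726% of all genes higher. In it 2 of 7 had an unadjusted *p* under 0.05, as had 2016 of 12673 genes. DESeq2 called 1 (*Acan*) and 1.33% of all genes higher. The log2 fold changes of late over early AVFs were 3.46 ± 0.92 (SE) for *Acan*, 1.79 ± 0.79 for *Cilp*, and 1.34 ± 1.35 for *Tnmd*. Every late library was above every early library in 1 of 7 tested members, *Acan*, against 7.16% of all genes, and also in *Cilp2* and *Chad*, which were not tested. The value for *Tnmd* was 3.54 without early AVF 1 and 0.73 without late AVF 19. It was -1.40 without the libraries opposite to their labelled sex.

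The early AVFs, against the same contralateral veins, ask which of these genes had changed within days. Of the 7 tested members 3 were called higher, as were 6.17% of all genes. *Acan* (adjusted *p* = 3.99e-05) was tested only because of its mid and late libraries, and over the 8 early AVFs it held 588 reads. The others were higher, *Sox9* by 3.18 ± 0.85 on the log2 scale (SE; adjusted *p* = 0.00756), and *Tnmd* by 5.88 ± 1.60 (adjusted *p* = 0.00823). Both also met the minimum for a test through AVFs in which they were high. *Sox9* held 523 reads over the contralateral veins and 6205 over the early AVFs, and *Tnmd* held 62 and 4543. These calls are therefore no independent support. *Sox9* alone had every early library above every contralateral vein, 1 of 7 against 4.47% of all genes. For *Cilp* the log2 fold change was 1.34 ± 0.75 (adjusted *p* = 0.21), for *C1qtnf3* 2.83 ± 1.15 (adjusted *p* = 0.0793), for *Runx2* 2.01 ± 1.02 (adjusted *p* = 0.165), and for *Fibin* 0.43 ± 0.50 (adjusted *p* = 0.587). The median over the 7 members was 2.83 and that of all genes -0.01. The call of *Acan* held without each of the 25 libraries in turn. That of *Sox9* (2.92 to 3.50) was lost without any 1 of 14 libraries, namely contralateral veins 632 and 633, early AVFs 1, 2, 3, 4, 6, 7, and 10, mid AVFs 13 and 14, and late AVFs 19, 23, and 24. That of *Tnmd* (3.6964 without early AVF 1 to 10.01 without contralateral vein 633) was lost without any 1 of 16, namely contralateral veins 27, 28, 31, 34, 35, and 632, early AVFs 1 and 3, mid AVFs 9, 12, 13, 14, and 15, and late AVFs 19, 23, and 24. *Runx2* was called, at 4.10, without contralateral vein 31. Without the 8 libraries opposite to their labelled sex, and without the 7 rich in muscle genes, *Acan* alone was called (2.18% and 3.07% of genes higher). Without the 4 contralateral veins of fewest detected genes *Acan*, *Sox9*, and *Runx2* were called (9.35% of genes higher), and *Tnmd* was not.

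In mid AVFs against contralateral veins, 1 of 7 tested members was called higher, *Acan* (adjusted *p* = 1.78e-05), as were 2.74% of all genes. With 0 reads in the contralateral veins, *Acan* reached the minimum for a test through the AVFs in which it was high, and this call is no independent support. *Cilp* lay just outside the threshold, with a log2 fold change of 3.29 ± 0.85 (SE) and an adjusted *p* of 0.0106, and was called without contralateral vein 632 or early AVF 6, 7, or 10. *C1qtnf3* had 4.598 ± 1.30 (adjusted *p* = 0.0195), *Tnmd* 5.39 ± 1.61 (adjusted *p* = 0.0268), *Fibin* 1.79 ± 0.56 (adjusted *p* = 0.0335), and *Sox9* 2.65 ± 0.89 (adjusted *p* = 0.0486). *Runx2* had 1.51 ± 1.09 (adjusted *p* = 0.419). *Tnmd* was called, at 9.53, without contralateral vein 633, and it too met the minimum through AVFs in which it was high. In 5 of 7 members (*Cilp*, *C1qtnf3*, *Fibin*, *Acan*, and *Tnmd*) every mid library was above every contralateral vein, against 7.32% of all genes, and the median over the members was 3.29 against -0.10 for all genes. At an adjusted *p* under 0.05, 6 of 7 members and 4.88% of all genes were called higher, and DESeq2 called the same 6 at 0.01 and 4.92% of all genes. Without the 4 contralateral veins of fewest detected genes *Acan* and *Runx2* were called (5.73% of genes higher).

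Between mid and early AVFs no member was called by edgeR, where 0.00789% of all genes were called higher. DESeq2 called none, and 0.442% of all genes higher. By edgeR, 3 of 7 members had an unadjusted *p* under 0.05, as had 1614 of 12673 genes. On the log2 scale *Acan* differed by 2.23 ± 0.90 (SE; adjusted *p* = 0.235), *Cilp* by 1.95 ± 0.79 (adjusted *p* = 0.226), and *Fibin* by 1.36 ± 0.53 (adjusted *p* = 0.202). *Tnmd* had -0.49 ± 1.40 (adjusted *p* = 0.999), and 1.71 without early AVF 1. Late and mid AVFs differed by 1.23 ± 1.02 for *Acan* and 1.83 ± 1.58 for *Tnmd*, and by less than 1 SE for the other 5 tested members.

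**Figure D3:**
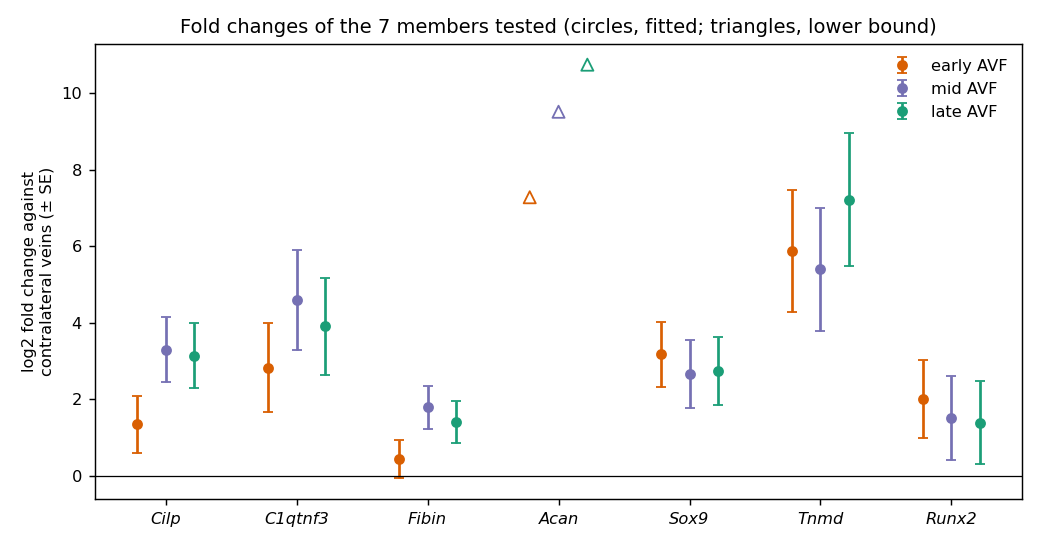
log2 fold change against contralateral veins (vertical axis, ± SE) of the 7 tested members in early, mid, and late AVFs; circles are fitted by edgeR, and the triangles of *Acan* are lower bounds, since the contralateral veins held no read. The late values describe the libraries that chose the genes, and the values of *Sox9* and *Runx2* overlap among the 3 time points within their SE.

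Sex was tested over all 25 libraries as labelled. No member differed between male and female vessels at an adjusted *p* under 0.05 (edgeR, 0% of all genes), 1 of 7 (*Tnmd*) had an unadjusted *p* under 0.05, and DESeq2 called none. In *Tnmd* the mean was 29.0 CPM in 5 early AVFs labelled male and 1.74 CPM in 3 labelled female, and the male group held early AVF 1. The 8 libraries opposite to their labels entered as labelled, so that this count does not show whether the sexes differed. A sex difference of the late change is not reported, since 4 of the 5 late libraries were opposite to their labels.

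Genes of like pattern were ranked by Spearman's rho of log2 CPM over the 25 libraries, which share the same group differences. *Acan* was closest to *Col8a1* (rho 0.96), *Ltbp2* (0.96), and *Kif26b* (0.94), of which the first encodes a short-chain collagen of vessel walls and the second a protein of elastic fibers. *Cilp* was closest to *Adamts16* (0.93), *Angptl1* (0.89), and the collagen VI gene *Col6a3* (0.89). *C1qtnf3* was closest to *Wnt16* (0.94), *Zfp185* (0.92), and *Srpx2* (0.90), and *Fibin* to *Dclk1* (0.87), *Pamr1* (0.86), and *Col6a2* (0.85). *Tnmd* was closest to *Ttll5* (0.87), *6820402A03Rik* (0.86), and *Col8a1* (0.85), *Sox9* to *Spire1* (0.88), *Hist1h2ae* (0.86), and *Gm15564* (0.85), and *Runx2* to *Fbxo17* (0.87), *Haspin* (0.86), and *Gramd1b* (0.85). Among the members themselves, *C1qtnf3* and *Fibin* had the highest rho (0.92), followed by *Acan* and *Tnmd* (0.86) and *Cilp* and *C1qtnf3* (0.84). After each group's mean was subtracted, the correlation of log2 CPM was 0.86 for *C1qtnf3* and *Fibin* and 0.26 for *Cilp* and *C1qtnf3*. Within the 10 mid and late libraries these were 0.15 and 0.15.

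Other genes of the same tissues moved beside the members, in the same late comparison and thus as a description. Of all 12673 tested genes, 2.49% were called higher and 361 genes lower, with a median log2 fold change of -0.09. Without the muscle-rich libraries 0.559% of genes were called higher. Of 13 further tendon and ligament genes, 12 were tested and 4 were called higher and none lower, with a median log2 fold change of 1.67. The 4 were *Thbs4* (5.63 ± 0.91, SE), *Comp* (4.90 ± 1.12), and *Col12a1* (3.41 ± 0.85), which encode proteins that organize collagen fibrils, and *Tnc* (1.81 ± 0.44), the tenascin of loaded tendon. *Thbs4* had means of 4.12 CPM in contralateral veins and 205 CPM in late AVFs. The count was 1 without late AVF 19, 2 without late AVF 16, 17, or 23, mid AVF 13, or vein 632 of the controls, 1 without the muscle-rich libraries, and 0 without those opposite to their labelled sex. The summed tendon genes were 1341 to 2068 CPM in contralateral veins and 2787 to 3768 CPM in late AVFs.

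Of 18 further cartilage genes only 8 were abundant enough to test, and 3 were called higher and 1 lower. Of all 12673 genes 2.49% were called higher and 361 genes lower. *Frzb*, a secreted Wnt antagonist of joint cartilage, had 4 reads over all contralateral veins and 29.2 to 109 CPM in late AVFs. *Col11a1* had a log2 fold change of 6.33 ± 1.20 (SE), and *Col2a1*, the main collagen gene of cartilage, was at 0 in the contralateral veins and at 1.46 to 18.0 CPM in late AVFs. *Cytl1*, a secreted protein of chondrocytes, was lower (-4.42 ± 0.61), with means of 1236 CPM in contralateral veins and 57.7 CPM in late AVFs. In the single-cell data *Cytl1* was highest in endothelial-like cells, at 1508 CPM in the contralateral library. The summed list, which includes *Cytl1*, was 189 to 313 CPM in late AVFs and 642 to 2702 CPM in contralateral veins, while the median of its log2 fold changes was 1.47. The count called was 2 without the muscle-rich libraries and 1 without those opposite to their labelled sex.

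Of 16 bone and mineralization genes, 6 were tested and 3 were called higher, against 2.49% of all genes. These were *Spp1* (4.70 ± 0.85, SE), *Enpp1* (3.25 ± 0.76), and *Mgp* (1.70 ± 0.40), and the median of the list was 1.77. *Spp1* is also made by macrophages, *Enpp1* generates the mineralization inhibitor pyrophosphate, and *Mgp* encodes an inhibitor of calcification. The count was 1 without late AVF 23 or 24 or the muscle-rich libraries, and 0 without those opposite to their labelled sex. Of 10 skeletal muscle genes, 9 were tested and 7 were called higher (median 7.75), against 2.49% of all genes. The sum of the 10 genes was 3.15 to 93.2 CPM in contralateral veins and 8.82 to 9890 CPM in late AVFs. The count was 3 without late AVF 23, 4 without contralateral vein 31, 35, or 633 or late AVF 19, and 0 without the 4 contralateral veins of fewest detected genes. Of 9 airway and thyroid genes 1 was tested, and neither edgeR nor DESeq2 called it (unadjusted *p* over 0.05). None of 8 fibroblast genes was called by edgeR (median 0.32), and DESeq2 called 1. By edgeR, 4 of the 8 had an unadjusted *p* under 0.05, as had 3148 of 12673 genes. The summed airway and thyroid genes were at most 57.2 CPM in contralateral veins and 31.9 CPM in late AVFs. Whether tissue around the vessel contributed reads of the members was not tested.

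The single-cell libraries show which cells carried the transcripts. With 1 library per condition no test was possible, and the intervals give counting error at 95% (exact Poisson for UMIs, exact binomial for shares). Clusters were named from marker genes. Fibroblast-like cells formed 4 clusters with 1894 contralateral, 822 early, and 2272 late cells, and smooth muscle-like cells formed 1 cluster with 32, 227, and 517 cells. One fibroblast-like cluster was shallow (median 973 UMIs), had *Pth*, *S100a9*, and *S100a8* among its leading genes, and held 426 of the early cells. It lost the fibroblast-like name in some settings given below. No cluster met the markers of a chondrocyte, and no markers of a tenocyte were set, so a tenocyte cluster could not have been named. Fibroblast-like cells were 29.97%, 17.3%, and 39.0% of the kept cells and held 44.6%, 23.2%, and 51.7% of all UMIs. Of the UMIs of the 10 members they held 75.9% (73.2 to 78.4, of 1075 UMIs) in the contralateral library, 74.9% (74.0 to 75.7, of 10685) in the early library, and 82.4% (82.0 to 82.8, of 39166) in the late library. Smooth muscle-like cells were not numerous enough in the contralateral library for precise levels.

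The members fell into 3 patterns of source. In the late library *Cilp*, *C1qtnf3*, and *Tnmd* came almost wholly from fibroblast-like cells, with 98.2% of 16369, 98.2% of 7950, and 97.6% of 621 UMIs. *Acan* came from smooth muscle-like cells with 81.3% of 1270 UMIs (79.0 to 83.4), and from fibroblast-like cells with 17.7%. Of the 1032 late *Acan* UMIs in the smooth muscle-like cluster, 265 lay in 3 cells without *Myh11* that also held most of the *Chad* UMIs of the cluster. *Sox9* was shared evenly, with 49.99% in fibroblast-like and 47.7% in smooth muscle-like cells, as was *Scx*, with 47.2% and 47.0%. *Fibin* was fibroblast-like at 81.1% and smooth muscle-like at 16.7%. *Runx2* was the exception: 35.7% of its 1428 UMIs came from T or NK-like cells, 34.1% from fibroblast-like cells, and 14.6% from mono/macrophage-like cells. In the early library the order was alike for *Acan*, with 76.3% of 405 UMIs in smooth muscle-like cells, and *Sox9* leaned to fibroblast-like cells with 58.0% of 1666 UMIs.

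**Figure D4:**
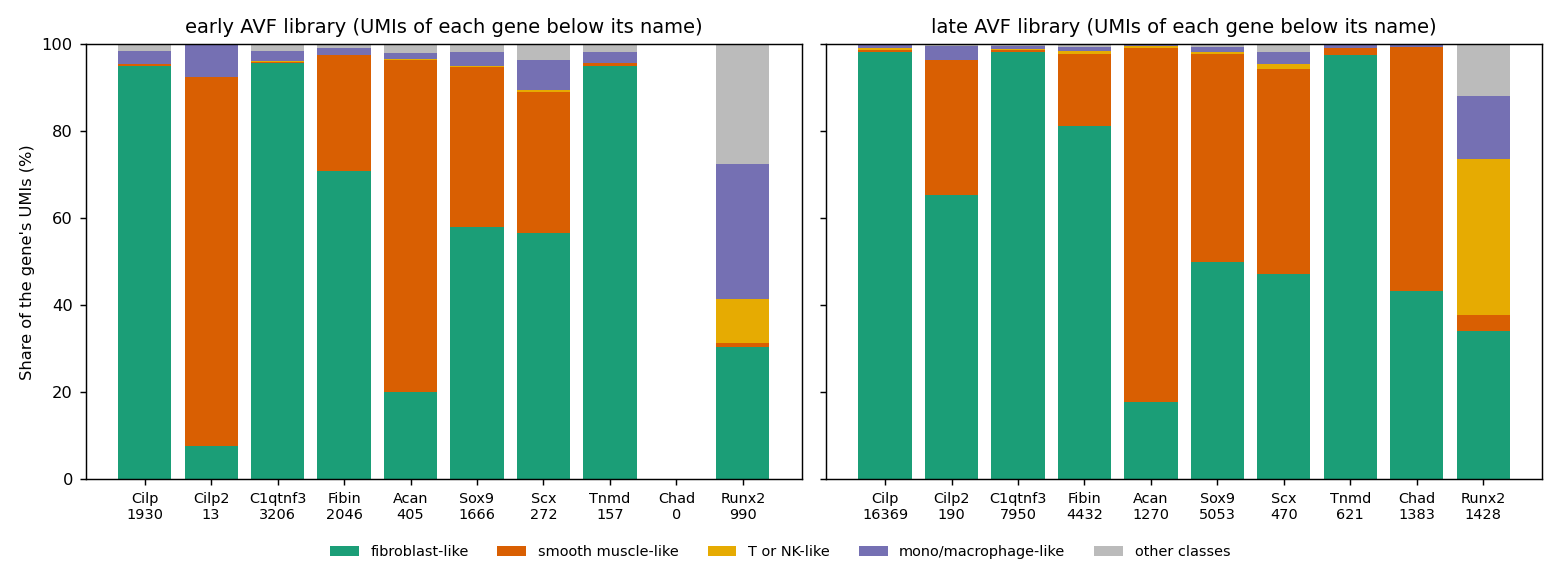
Share (%) of each member's UMIs by cell class in the early and late single-cell libraries (vertical axis), with the number of UMIs under each gene name. *Cilp*, *C1qtnf3*, and *Tnmd* lie almost wholly in fibroblast-like cells, *Acan* lies mostly in smooth muscle-like cells, and *Chad* has no UMI in the early library.

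Of the 4 most abundant members in fibroblast-like cells, *Cilp* alone was higher in the late than in the early library. It was at 28.8 CPM of the UMIs of these cells (25.9 to 31.8) in the contralateral library, at 142 (135 to 148) in the early library, and at 316 (311 to 321) in the late library, a late-to-early ratio of 2.23 (2.13 to 2.35). *C1qtnf3* went from 7.98 to 237 and 153 CPM, a late-to-early ratio of 0.648 (0.621 to 0.676). *Fibin* went from 6.595 to 112 and 70.7 CPM, with a ratio of 0.632 (0.594 to 0.672), and *Sox9* from 14.0 to 74.6 and 49.7 CPM, with 0.666 (0.618 to 0.718). *Cilp2* had 124 late UMIs and 1 early UMI, a ratio of 31.6 (5.56 to 1257). *Runx2* and *Scx* had the lowest ratios, 0.410 (0.355 to 0.475) and 0.367 (0.297 to 0.454). Over the class as a whole, *Tnmd* was level between the AVF libraries, at 11.5 and 11.9 CPM, with a ratio of 1.03 (0.864 to 1.25). It was at 2.99 CPM (2.13 to 4.09) in the contralateral library. Within a group of these cells described below, *C1qtnf3*, *Fibin*, *Tnmd*, and *Scx* were higher in the late than in the early library, and *Sox9* and *Runx2* were lower. The ratios of the class as a whole therefore do not hold within that group. *Acan* had no UMI among the 1894 contralateral fibroblast-like cells, which allows up to 0.230 CPM, and 6.26 and 4.42 CPM in the AVF libraries.

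Median depth per fibroblast-like cell was 4288, 6269, and 23440 UMIs, so shares of cells were compared after each cell was thinned to 1500 UMIs, without 464, 266, and 254 shallower cells. *Cilp* was then detected in 1.96%, 7.73%, and 15.0% of cells (contralateral, early, and late), against 4.22%, 19.7%, and 35.1% before thinning. *C1qtnf3* was detected in 1.05%, 11.2%, and 8.67% of the thinned cells. *Cilp* also had a UMI in 7.76% of the late mono/macrophage-like cells (median 13804 UMIs), at 5.32 CPM against 316 CPM in fibroblast-like cells. Whether RNA from outside the cells gave these UMIs was not tested.

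*Acan* and *Sox9* were higher in smooth muscle-like than in fibroblast-like cells of both AVF libraries. *Acan* was at 63.1 CPM (56.3 to 70.6) in the early and 80.3 CPM (75.4 to 85.3) in the late library, a ratio of 1.27 (1.12 to 1.45). Without the 3 late cells rich in *Chad*, which were set aside after seeing the data, the late level was 60.2 CPM (56.0 to 64.65) and the ratio 0.954 (0.835 to 1.09). *Sox9* was at 125 and 187 CPM, a ratio of 1.497 (1.37 to 1.64), or 1.39 (1.27 to 1.52) without these cells. *Fibin* was at 112 and 57.7 CPM, with a ratio of 0.517 (0.463 to 0.579), and *Scx* was at 18.0 and 17.2 CPM, with 0.956 (0.744 to 1.24). The 32 contralateral cells held 7 of the 8 *Acan* UMIs of their library (87.5%) and 1 of its 198 *Sox9* UMIs. With so few cells, whether their *Acan* level differed from that of smooth muscle-like cells in the AVF libraries was not tested. *Cilp*, *C1qtnf3*, and *Tnmd* were at 5.75, 2.57, and 0.700 CPM in late smooth muscle-like cells, against 5.32, 2.83, and 0.254 CPM in late mono/macrophage-like cells.

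**Figure D5:**
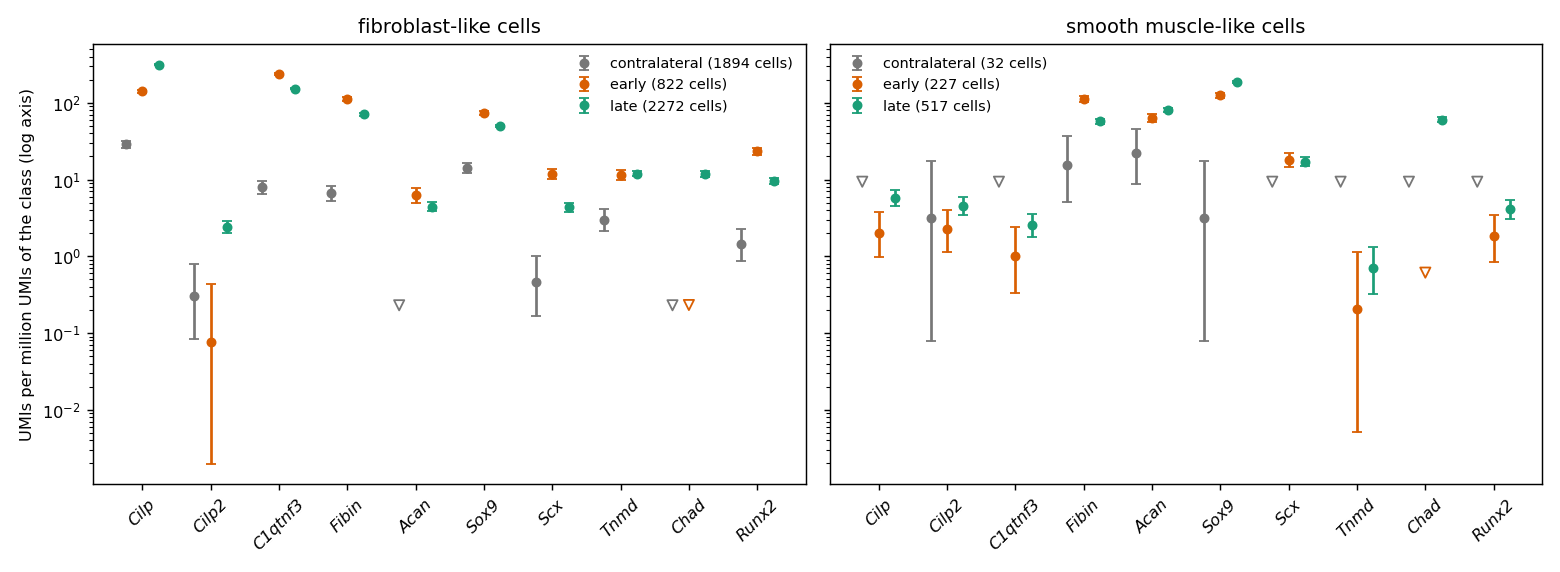
CPM over the UMIs of the class (vertical log axis) of the 10 members in fibroblast-like and smooth muscle-like cells of the contralateral, early, and late libraries; bars are exact Poisson 95% intervals, and open triangles give the limit that 3 counts would mark where no UMI was seen. *Cilp* is at 28.8, 142, and 316 in fibroblast-like cells, and *Acan* is at 63.1 and 80.3 in smooth muscle-like cells of early and late AVFs, the latter 60.2 without 3 cells rich in *Chad*.

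Fibroblast-like cells were clustered again, which gave 9 groups. Some were led by genes of other cells: group 2, the largest early group (344 cells, 41.85%; 274 late cells, median 921 UMIs), by *S100a9*, *Cd74*, *H2-Eb1*, *H2-Aa*, and *H2-Ab1*, group 6 (379 contralateral cells, median 873 UMIs) by hemoglobin genes, and group 8 (79 late cells, median 1470 UMIs) by *Npnt*, *Spp1*, *Serpine2*, *Acta2*, and *Tagln*. Group 2 held 11.4% of the early fibroblast-like UMIs of *Tnmd*, 11.1% of *Acan*, and at most 5.28% of any other member. Group 8 held 97.0% of the late fibroblast-like UMIs of *Chad* and 49.8% of *Acan*. Levels of the class without each of these groups are not given. Group 3, led by *Tnc*, *H19*, *C1qtnf3*, *Thbs4*, and *Cthrc1*, held 38.7% of the early (318 cells) and 8.72% of the late fibroblast-like cells (198), against 4 contralateral cells. These 198 late cells carried 48.8% of the late fibroblast-like UMIs of *Cilp*, 70.7% of *C1qtnf3*, 79.7% of *Scx*, 75.1% of *Tnmd*, and 81.5% of *Cilp2*. In the late library the group stood at 1321 CPM of *Cilp*, 929 of *C1qtnf3*, and 282 of *Fibin*, against 187, 321, and 139 CPM in its early cells. Group 0, led by *Comp*, *Col4a5*, and *Apoe*, was the largest late group with 984 cells and held 318 CPM of *Cilp*, 88.1 of *C1qtnf3*, and 4.69 of *Tnmd*. These groups were formed from the same cells, so that their differences are a description.

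*Chad* came from very few cells. It had no UMI in the contralateral and early libraries, which allows up to 0.230 and 0.232 CPM in their fibroblast-like cells, and 1383 UMIs in 23 late cells, of which 4 cells held 97.4%. Of these 4 cells 3 were in the smooth muscle-like cluster and 1 was in a fibroblast-like cluster of shallow cells, with 36661 to 45499 UMIs each, and Scrublet marked none of them as a doublet. Other cartilage genes, named after their values were seen, were present in them: the 3 cells held 6297 UMIs of *Col2a1*, 265 of *Acan*, 191 of *Sox9*, 141 of *Hapln1*, and 155 of *Cnmd*, and the other cell held 1334, 68, 61, 84, and 79 UMIs of these genes. None held a UMI of *Myh11*, *Pdgfra*, *Cilp*, or *Tnmd*, and their class names are those of the clusters alone. Without the 4 cells *Chad* was at 0.707 CPM in late smooth muscle-like cells in place of 60.2, and the late share of member UMIs in fibroblast-like cells was 84.9%. Without the shallow cluster *Chad* in fibroblast-like cells was at 0.345 CPM in place of 11.8, and *Acan* at 2.26 in place of 4.42 CPM. Other members were less concentrated: 50% of a gene's UMIs in the late library lay in 72 cells for *Cilp*, 36 for *C1qtnf3*, 130 for *Fibin*, 105 for *Sox9*, 16 for *Acan*, and 11 for *Tnmd*.

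List genes called in bulk were also followed by class. In late fibroblast-like cells *Thbs4* stood at 274 CPM (270 to 279), *Comp* at 136, and *Col12a1* at 109 CPM, while late smooth muscle-like cells held 2.18, 264, and 20.6 CPM of these genes. Without the 3 cells rich in *Chad* the *Comp* level of smooth muscle-like cells was 191 CPM (184 to 199), still above that of fibroblast-like cells. *Tnc* was at 66.6 and 70.8 CPM in the fibroblast-like and smooth muscle-like cells. In late smooth muscle-like cells *Frzb* stood at 207 CPM (199 to 215) and at 5.84 CPM in fibroblast-like cells. *Col2a1* was at 494 CPM in the smooth muscle-like cluster, where 3 cells held 6297 of its 6353 UMIs, and at 4.397 CPM without them. The muscle genes *Acta1* and *Ckm* were at 0.197 and 0.0590 CPM in late fibroblast-like cells.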

How the data were processed

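RNA was sequenced from 25 single vessels in bulk and from 3 pools of vessels as single cells. The authors deposited raw gene counts for the bulk libraries and counts of UMIs per gene and cell. Per the labels, STAR and Cell Ranger were used with mm10 or GRCm38, and no source used here gives their versions, the bulk annotation, or the strand setting of the bulk counts. The genes described and the gene lists were chosen with earlier results of these data known. Groups came from the sample labels, and the named genes are all 10 members, with at most the 6 called list genes of largest fold change, the 3 genes of highest Spearman coefficient to each member, and the 5 leading genes of a fibroblast-like group.

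Bulk counts were fitted with edgeR 4.0.16 (R 4.3.3; TMM, quasi-likelihood F test, 1 mean per group over all 25 libraries, genes with a mean normalized count of at least 100). The study states thresholds of 0.01 and of 0.05 in different places, and 0.01 with a 2-fold change was used. The alternatives were DESeq2 1.42.0, upper quartile scaling, other filters, a sex term, a threshold of 0.05, and leaving out each library. Leaving out the libraries opposite to their sex label, the contralateral veins with under 14000 genes, the libraries above 1000 CPM of muscle genes, and the cells with at least 10 UMIs of *Chad* was chosen after seeing the data. Replicates are separate vessels, and depth limits precision through counts of 20254173 to 67457501 reads.

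The filter on cells required 200 to 6000 detected genes and no more than 10% of counts from mitochondria (scanpy 1.11.5), and cells were clustered on 2000 variable genes without the members, lists, and markers (12 components, 20 neighbors, Leiden resolution 0.5). Scrublet marked 0, 2, and 120 cells (contralateral, early, and late) and thus had not worked in the contralateral and early libraries, and no cell was removed by it. Intervals and floors cover counting error only. The edgeR steps were tested on simulated data.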

Additional observations from a re-analysis of the deposited data

Results flagged for a closer look

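In each gene and group the highest and lowest library were compared with the rest by Dixon's criterion. For normally distributed values, chance alone meets this criterion in about 1 of 20 groups. The CPM values were not transformed and hold zeros, and the genes share libraries, so that rate does not apply here. The criterion was met in 9 of 38 pairs of gene and group. Early AVF 10 was far above the other early AVFs in *Cilp* (388.3 CPM, next 177.6) and in *C1qtnf3* (816.5 CPM, next 356.3). Early AVF 1 stood apart in *Tnmd* (122 CPM, next 14.22), and contralateral vein 633 in the same gene (2.069 CPM, next 0.0791). *Chad* was at 12.29 CPM in late AVF 24 (next 2.544) and at 1.898 CPM in contralateral vein 27 (next 0). *Runx2* was at 18.74 CPM in contralateral vein 31 (next 3.203) and at 29.53 CPM in early AVF 3 (next 14.41). *Cilp2* was at 1.688 CPM in mid AVF 13 (next 0.418).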

How the results depend on the processing

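Of 252 fold changes of members under the alternatives chosen at the start other than leaving out a library, 222 kept direction and call, 28 gained a call, 1 lost it, and 1 reversed. Members called in late AVFs against contralateral veins (2) numbered 5 with DESeq2 (4.48% of all genes higher), 4 with filterByExpr (11%) or no filter (5.82%), 5 at an adjusted *p* under 0.05 (4.59%), 0 without the libraries opposite to their sex label (0.12%), 1 without the muscle-rich libraries (0.559%), and 3 without the contralateral veins of fewest genes (5.05%). Against early AVFs (0) they numbered 1 with DESeq2 (1.33%), at 0.05 (1.64%), or without the contralateral veins of fewest genes (2.52%). For mid AVFs against contralateral veins (1) the counts were 6 with DESeq2 (4.92%) or at 0.05 (4.88%), 2 with upper quartile scaling (3.35%) or without the veins of fewest genes (5.73%), 3 with filterByExpr (11.3%) or a sex term (2.77%), and 4 with no filter (6.06%). For early AVFs (3) the count was 1 without the sex-opposed (2.18%) or the muscle-rich libraries (3.07%). Tendon genes (4) numbered 0 and 1 without these 2 sets of libraries, cartilage genes (4) 1 and 2, and bone genes (3) 0 and 1. With filterByExpr or no filter, which test more genes, cartilage genes numbered 8 and bone genes 6. Skeletal muscle genes (7) numbered 0 in each of the 3 sets left out, and fibroblast genes (0) 1 with DESeq2 or at 0.05.

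Without 1 library each, counts ranged from 1 to 3 for members in late and in early AVFs against contralateral veins, from 1 to 2 in mid AVFs, from 0 to 0 in the other 3 comparisons, from 1 to 5 for tendon, 4 to 5 for cartilage, 1 to 3 for bone, 3 to 7 for skeletal muscle, and 0 to 0 for airway and fibroblast genes. These log2 fold changes reversed: *Tnmd* late against early to -1.40 and late against mid to -0.56 (sex-opposed libraries left out); *Fibin* early against contralateral to -0.070 (without early AVF 10; 0.74 at most, without contralateral vein 35), -0.083 (veins of fewest genes), and -0.33 (muscle-rich). *Tnmd* mid against early reversed to 1.33 (sex term), 1.71 (without early AVF 1; -0.69 at least, without early AVF 2), and 1.91 (muscle-rich). Late against mid, *Cilp* reversed to 0.18 and 0.12 and *Acan* to -0.49 and -0.20 (sex-opposed and muscle-rich), *Sox9* to -0.13 (without mid AVF 15), -0.11 (without late AVF 24; 0.25 at most, without mid AVF 9), -0.15, and -0.18, and *Runx2* to 0.065 (muscle-rich). The cause was not tested. The share of member UMIs in fibroblast-like cells (74.9% early, 82.4% late) was 69.7% and 79.15% without the shallow cluster. It was 70.0% and 80.07% without doublets, of which 2 were early cells, and 68.8% and 79.0% with 20% mitochondrial counts allowed. In these settings the shallow cluster led by *Pth* lost the fibroblast-like name. It was unnamed without doublets and mono/macrophage-like with 20% mitochondrial counts, so they are no separate checks. The late share was 84.9% without the 4 cells rich in *Chad*. No paired analysis was possible because the groups share no replicate numbers. With 1 single-cell library per condition no difference could be tested, and 32 smooth muscle-like contralateral cells limit that class.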
